A study of Mus musculus with 8 samples.

Results

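Nuclear-encoded oxidative phosphorylation (OXPHOS) genes were followed across B and T cell subsets of the mouse spleen by genotype and by sort. Members were taken by gene symbol alone: every symbol starting with Nduf followed by a, b, c, s or v and a digit, with Uqcr, with Cox4 to Cox8 or with Atp5, leaving out pseudogenes and Ndufaf assembly factors. This gave 80 of the 32285 genes in the count tables, of which 37 carry complex I names, 8 complex III names, 18 complex IV names and 17 complex V names. Complex V held 33.2% of the module's UMIs (unique molecular identifiers, the counted molecules), complex I 30.8%, complex IV 26.5% and complex III 9.43%. The symbol rule places Ndufa4, now regarded as a complex IV subunit, with complex I. It places Cox7a2l, linked to the joining of respiratory complexes into supercomplexes, with complex IV. Whether Cox7a2l has that role in these mice was not tested. After a filter on low counts, 75 members were tested in at least 1 comparison and 72 in every comparison.

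Single-cell RNA was read from the 3′ ends of transcripts in 8 libraries that form 4 groups of 2, namely total splenocytes of control mice, total splenocytes of cKO mice, and sorted YFP+ cells of either genotype. All mice were 2 months old and, per the study's methods, on the C57BL/6J background. The cKO mice were Eif3e fl/fl Cγ1Cre with a Rosa26-YFP reporter behind a stop cassette that Cre removes, and the controls carried Cγ1Cre and the same reporter without the floxed alleles, so Cre and reporter are shared by all groups. Cγ1Cre acts in B cells once germline γ1 transcription starts, so total splenocytes were not selected for Cre activity. YFP marks cells in which Cre has acted now or earlier, and each library pools several mice of 1 genotype in 1 batch. The sorted libraries were not free of other cell types, which were more frequent in batch 1. Naive CD4 T-like cells numbered 145 (batch 1) and 30 (batch 2) for control YFP+, against 102 and 8 for cKO YFP+. Monocytes or macrophages numbered 65 and 23, against 116 and 20. The share of YFP+ naive B-like cells in which Cre had acted was not tested.

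Oxidative phosphorylation is the last stage of respiration in mitochondria. Complexes I, III and IV pass electrons from NADH to oxygen and pump protons across the inner membrane, and complex V (ATP synthase) makes ATP as the protons flow back. Most subunits are encoded in the nucleus and imported, a few core subunits are encoded by mitochondrial DNA, and resting lymphocytes are known to enlarge this machinery when they are activated and divide.

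Filtering kept 83704 cells, with 71868375 to 105099466 UMIs per library, and library pairs shared between 51 and 102 cell barcodes. Batch 2 read higher than batch 1 for the module's share of UMIs in 82 of 83 pairs of class and group, with a median ratio of 1.25, so the module's share and the values of the leading members are given per batch below. The libraries labelled cKO of batch 1 stood apart in sex-linked RNA. Xist, which female cells express, was at 524 in total and 638 in YFP+ cells (CPM, UMIs scaled to an equal total per library). It was at most 0.348 CPM in each of the other 6 libraries. Both cKO libraries of batch 1 also held Y-linked RNA, so they need not hold female cells only. Ddx3y was at 72.8 and 52.0 CPM there against 80.3 to 140 CPM in the other 6. The part of these sex-linked differences in the genotype values of batch 1 was not tested.

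Eif3e, the targeted gene, had a higher and not a lower 3′ count in naive B-like cells labelled cKO. In naive B-like cells of total splenocytes Eif3e stood at 185 and 232 CPM in control and at 225 and 316 CPM in the libraries labelled cKO, and in YFP+ cells at 185 and 263 against 293 and 411 CPM. The direction was higher, not lower, in cKO, with log2 fold changes of 0.37 ± 0.08 and 0.66 ± 0.10 (SE) and adjusted p of 0.00347 and 0.00202 with batch as a term. A fall was read in YFP+ B cluster 8, described further on, where Eif3e was at 227 and 252 CPM in control and 130 and 143 CPM in cKO, a log2 fold change of -0.81 ± 0.17 (edgeR quasi-likelihood, Benjamini-Hochberg adjusted p = 0.00616). No source read for this work states where the deleted exons lie. A 3′ tag may therefore lie outside the deleted part and need not check the labels. At the protein level, the study reports deletion of Eif3e by immunoblot in YFP+ B cells of older cKO mice. The name cKO below means the libraries labelled cKO.

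The summed module was higher in GCB-like cells than in naive B-like cells in every library. Its share of all UMIs of a class in a library ran from 1.82% to 2.30% in germinal centre B (GCB)-like cells, from 1.72% to 2.08% in an unnamed cycling B cluster (cluster 8, led by Fabp5, Tmem176b and Timd2) and from 0.799% to 1.22% in naive B-like cells. The GCB-like and naive B-like ranges did not overlap. A cycling T cluster left unnamed (cluster 12 of the T cells, 89.5% of cells with an Mki67 UMI) ran from 1.89% to 2.20% in the total libraries. An unnamed B cluster of few UMIs per cell (cluster 15) ran from 0.790% to 1.19%, and in cKO total it lay below naive B-like cells in both batches. The classes were rebuilt from the counts by clustering on genes that excluded the members, and a class is named only as like its markers, so these levels are a description. T-bet+ B-like cells ran from 1.17% to 1.80%, activated B-like cells, with an Mki67 UMI in 3.87% of cells, from 1.24% to 1.61%, plasma cell-like cells, whose clusters had 57.8% and 98.7% of cells with an Mki67 UMI, from 1.13% to 1.64% and naive CD4 T-like cells from 0.915% to 1.27%.

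**Figure D1:**
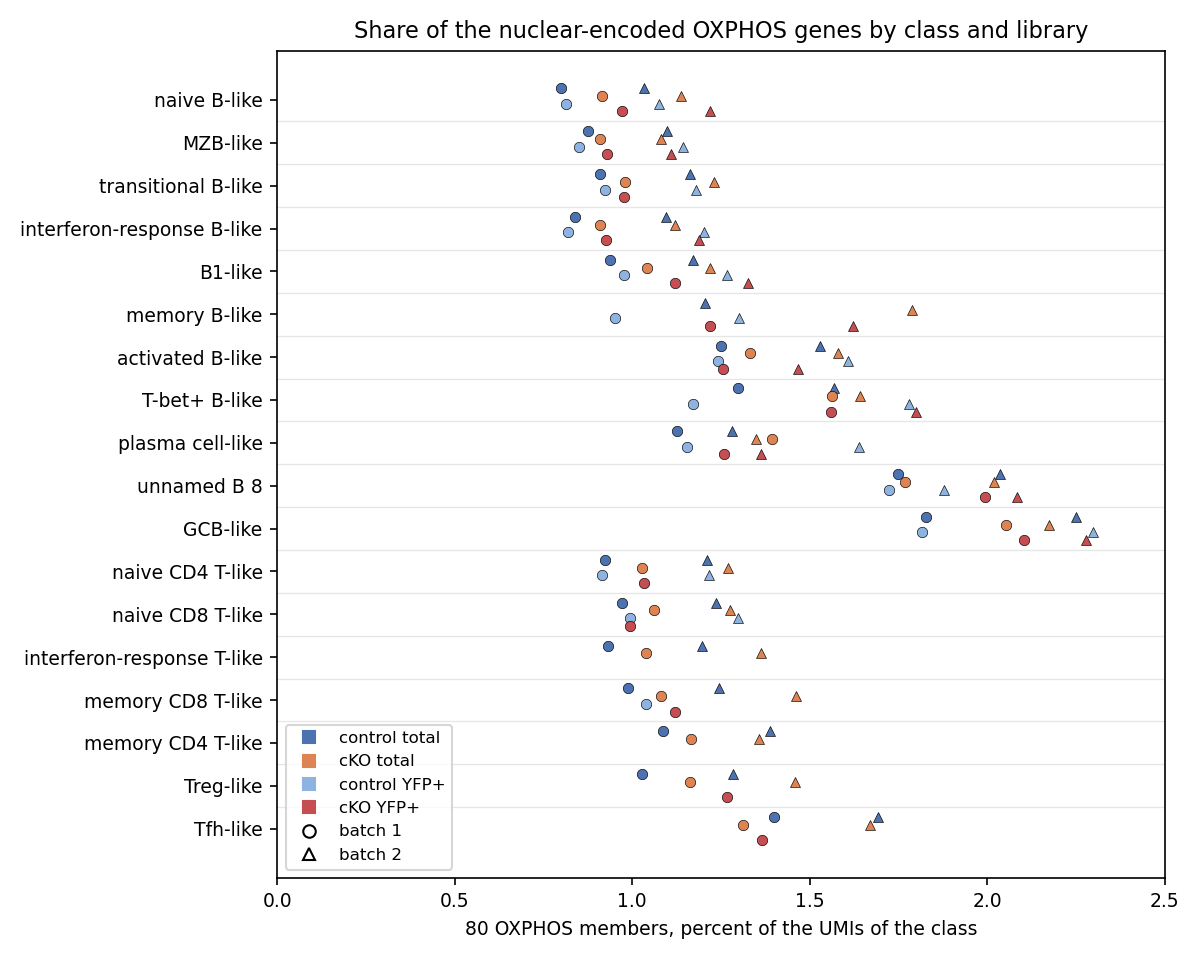
Share of all UMIs held by the 80 members in each B and T class (x axis, percent of UMIs; y axis, class), 1 point per library, coloured by group and shaped by batch. GCB-like cells sit between 1.82% and 2.30%, to the right of all 8 naive B-like points, and batch 2 lies to the right of batch 1 in nearly every class.

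The step from naive B-like to GCB-like cells ran through almost the whole module, but not evenly. Of 72 members with enough counts, 70 were higher in GCB-like than in naive B-like cells in all 8 libraries, with a median ratio of 2.09. The ratio was taken for members only, so it is not set against all genes. Atp5g3, 1 of 3 genes for the c subunit of the ATP synthase rotor, had the largest median ratio, 3.87 (3.09 to 4.26 over libraries). Uqcr10 and Uqcr11, small subunits of complex III, stood at 3.33 and 3.22, and Ndufc2 of complex I at 3.21. At the other end, Ndufa6 stood at 1.02 (0.953 to 1.13), Ndufs4 at 1.13 and Cox7a2l at 1.18 (0.975 to 1.38). Ndufa6 and Cox7a2l are the 2 members that were not higher in every library. By complex, the median of the members' ratios was 2.46 for complex V, 2.36 for complex IV, 2.01 for complex I and 1.98 for complex III.

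In naive B-like cells of total splenocytes the members were slightly and broadly higher in cKO. The module's share was 0.799% and 1.03% in control and 0.914% and 1.14% in cKO (batches 1 and 2), a ratio of 1.144 in batch 1 and 1.102 in batch 2, while the control library of batch 2 lay above the cKO library of batch 1. Of 72 members tested, 70 were higher in cKO within both batches, and the same count over all genes was not computed. The batch gap was wider than the genotype gap, and the test without the batch called 0 members (edgeR quasi-likelihood; 0 at an unadjusted p under 0.05, 0 by DESeq2), where 0.103% of all genes were called higher. With batch as a term 43 of 72 members were called higher and 0 lower, against 10.6% of all genes called higher and 9.62% called lower. That fit leaves 1 residual degree of freedom, so its SE and calls lean on the spread shared over all genes. The members' median log2 fold change was 0.26 (0.00 over all 12635 genes tested). Without TMM scaling the fit with the batch called 19, with no share of all genes given here. The members' median without the batch was 0.15 without TMM scaling. Leaving out 1 library, with TMM scaling, moved the median from 0.03 to 0.48. Of the called members 17 belonged to complex I, 4 to complex III, 9 to complex IV and 13 to complex V.

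The largest change of a called member was that of Ndufb2, an accessory subunit in the membrane arm of complex I, at 40.7 and 50.2 CPM in control and 56.5 and 71.0 CPM in cKO. All cKO values of Ndufb2 lay above all control values, with a log2 fold change of 0.49 ± 0.08 (adjusted p = 0.000318 with batch as a term). Atp5e, the ε subunit of the rotor stalk of ATP synthase, stood at 289 and 345 CPM in control and 407 and 463 CPM in cKO, again without overlap, a change of 0.46 ± 0.08 (adjusted p = 0.00052). Ndufa1, a small membrane-arm subunit, was at 67.6 and 86.7 against 92.9 and 116 CPM. Cox6c, a nuclear-encoded subunit of cytochrome c oxidase, was at 152 and 212 CPM in control and 205 and 284 CPM in cKO, where control of batch 2 exceeded cKO of batch 1. Atp5l, a subunit of the membrane part of ATP synthase, showed the same overlap, at 216 and 294 against 293 and 392 CPM.

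Several catalytic and core subunits were not called. Uqcrc1 and Uqcrc2, the core proteins of complex III, had log2 fold changes of -0.07 ± 0.08 and -0.04 ± 0.08 and were lower in cKO in both batches. Ndufs1, which carries iron-sulfur centres in the matrix arm of complex I, was at 42.6 and 40.2 CPM in control and 45.5 and 44.3 CPM in cKO (adjusted p = 0.346). Atp5a1 and Atp5b, the α and β subunits of the catalytic head of ATP synthase, had log2 fold changes of 0.15 ± 0.08 and 0.08 ± 0.08, with adjusted p of 0.205 and 0.529. None of these 5 genes was called, and whether they differ from the accessory subunits was not tested.

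YFP+ naive B-like cells showed the same pattern with larger values. The module's share was 0.812% and 1.08% in control and 0.972% and 1.22% in cKO, a ratio of 1.20 in batch 1 and 1.13 in batch 2. Of 73 members tested 72 were higher in cKO within both batches, and the same count over all genes was not computed. Without the batch 0 members were called (1 at an unadjusted p under 0.05, 0 by DESeq2), where 0.476% of all genes were called higher, and with batch as a term 38 were called higher and 0 lower, against 9.56% and 7.76% of all genes. The members' median log2 fold change was 0.35 (0.02 over all 12819 genes). Without TMM scaling the fit with the batch called 11, with no share of all genes given here. The members' median without the batch was 0.19 without TMM scaling. Leaving out 1 library, with TMM scaling, moved the median from 0.06 to 0.64. The 38 members held 35 of the 43 called in total splenocytes, which is 92.1% of the former and 81.4% of the latter. The labels do not say whether both sorts of a genotype and batch came from the same mice. The overlap therefore need not be one of independent mice, and the overlap over all genes was not computed.

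Cox7a2l led in YFP+ naive B-like cells, at 225 and 298 CPM in control and 341 and 498 CPM in cKO. Both cKO values of Cox7a2l lay above both control values, and the log2 fold change was 0.67 ± 0.10 (adjusted p = 0.00181 with batch as a term). Ndufb2 followed at 42.7 and 52.1 against 65.1 and 82.6 CPM, a change of 0.64 ± 0.10. Cox8a, a small structural subunit of complex IV and the most abundant member by UMIs over all cells, was at 218 and 437 CPM in control and 388 and 561 CPM in cKO, where the groups overlapped. Atp5g2, a rotor c subunit gene, was at 228 and 396 against 360 and 570 CPM, with overlap across batches, and Uqcrh, the hinge protein of complex III, at 259 and 389 against 392 and 551 CPM, without overlap. Uqcrc1, Uqcrfs1, Ndufs1, Ndufv1, Atp5a1 and Atp5b stayed uncalled here too, with log2 fold changes between -0.03 for Uqcrc1 and 0.20 for Ndufs1.

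**Figure D2:**
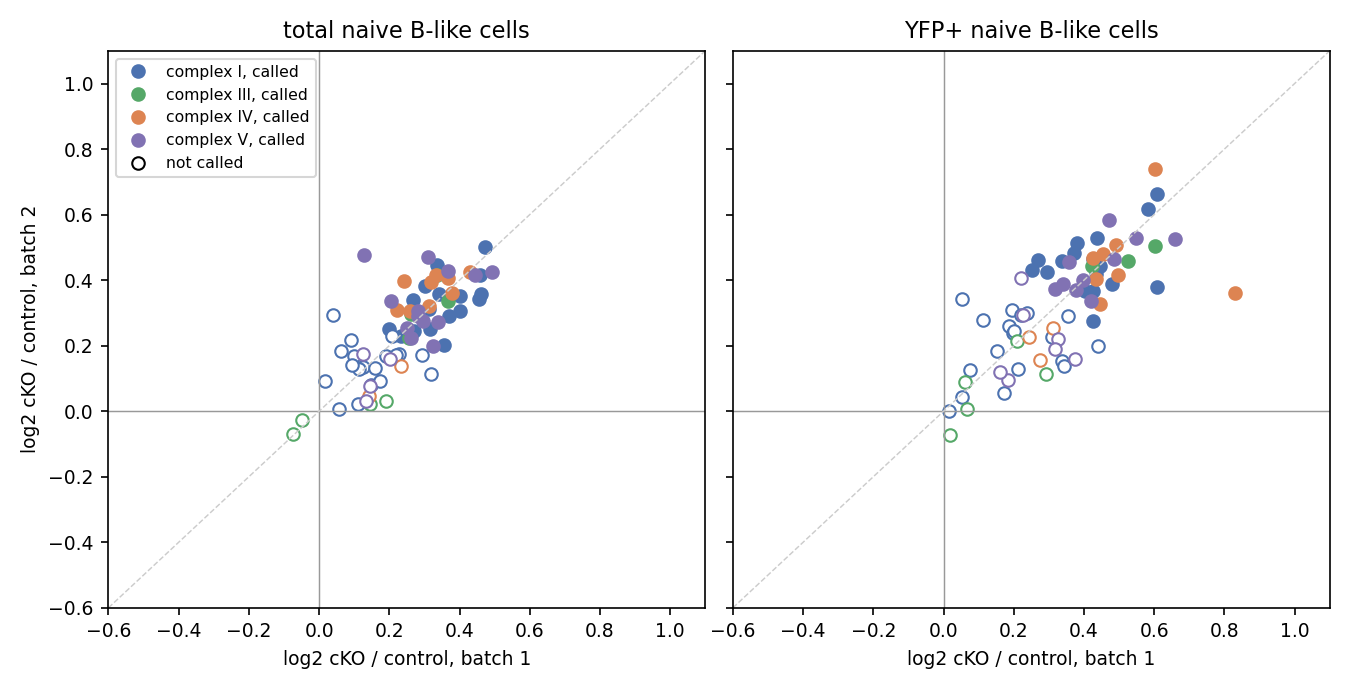
Log2 ratio of cKO over control for each member in naive B-like cells, batch 1 on the x axis and batch 2 on the y axis, total splenocytes at left and YFP+ cells at right; filled points were called with batch as a term, and colour gives the complex. In total cells 70 of 72 points and in YFP+ cells 72 of 73 lie above 0 in both batches, and 1 member of the YFP+ panel, Cox6b2, which rests on few UMIs, lies outside the axes.

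Promoters of members are shown as a description, since nuclear respiratory factor 1 (NRF1), ETS-family factors such as GABP and YY1 are textbook regulators of this gene class. A RefSeq promoter (250 bases before to 50 after the gene's start, GRCm38.p6) matched 65 of the 80 members. The NRF1 core GCATGCGC (reverse GCGCATGC) stood in 9 of these (13.8%) against 3.05% of all 27025 genes, the ETS core CCGGAAG (reverse CTTCCGG) in 15 (23.1%) against 9.93%, and the YY1 core ATGGCGG (reverse CCGCCAT) in 10 (15.4%) against 4.69%. Both strands were searched, the 3 motifs do not share letters by design but may lie next to each other, and 29 members (44.6%) held at least 1 of them. Below are the 120 bases before the start of 5 members called in total naive B-like cells, 5′ to 3′ on the gene's strand, with capitals on the motif letters: the NRF1 core in Atp5g2 and Ndufa11, where both strands match in overlap, the ETS core in Atp5e and Uqcrh, and the YY1 and ETS cores in Atp5j. A match is a string of letters in this window and not a measured binding site. The motif counts take matched members whether called or not. Called and uncalled members were not compared, so a link of the motifs to the genotype values was not tested.
Atp5g2, chr15:102671048-102671167, minus strand: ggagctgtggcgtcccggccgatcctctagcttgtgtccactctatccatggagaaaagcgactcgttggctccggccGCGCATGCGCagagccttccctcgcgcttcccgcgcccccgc
Ndufa11, chr17:56717642-56717761, plus strand: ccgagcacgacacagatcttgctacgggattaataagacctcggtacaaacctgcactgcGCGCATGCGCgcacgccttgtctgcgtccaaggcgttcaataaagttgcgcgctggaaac
Atp5e, chr2:174464102-174464221, minus strand: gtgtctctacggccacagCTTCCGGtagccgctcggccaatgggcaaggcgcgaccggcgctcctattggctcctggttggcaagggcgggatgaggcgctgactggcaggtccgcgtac
Uqcrh, chr4:116075071-116075190, minus strand: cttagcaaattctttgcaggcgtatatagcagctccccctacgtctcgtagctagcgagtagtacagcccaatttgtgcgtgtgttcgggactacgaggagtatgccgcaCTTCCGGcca
Atp5j, chr16:84834977-84835096, minus strand: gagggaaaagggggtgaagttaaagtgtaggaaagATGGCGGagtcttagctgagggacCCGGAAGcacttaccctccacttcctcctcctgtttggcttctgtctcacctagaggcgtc

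The members' level in naive B-like cells followed the clusters of the class, over which the genotypes were spread unevenly. Cluster 0 held 98.0% of control total and 95.9% of control YFP+ naive B-like cells but 16.0% and 3.70% of those of cKO. Most cKO cells were in cluster 1 (64.0% of total, 42.2% of YFP+), whose leading genes include Lifr, Rflnb and Xist, or in cluster 2 (19.96% and 54.1%), whose leading genes include Cish, Nfil3 and Il4i1. The module's share was 0.795% to 0.839% in cluster 0 in batch 1, 0.895% to 0.909% in cluster 1 and 1.00% to 1.02% in cluster 2, which held too few control cells for a value. In batch 2 the same clusters stood at 0.987% to 1.07%, 1.11% to 1.19% and 1.23% to 1.26%. Within cluster 0 cKO lay above control in batch 1 (0.831% and 0.839% against 0.795% and 0.806%) and below it within each sort in batch 2 (0.987% against 1.03% in total, 1.02% against 1.07% in YFP+ cells). Within cluster 0 alone, an alternative added after seeing the data, 0 members were called with batch as a term in either sort (3 of total and 4 of YFP+ cells at an unadjusted p under 0.05), where 2.27% of all genes in total and 1.06% in YFP+ cells were called higher, and the members' median log2 fold changes were 0.01 in total and -0.03 in YFP+ cells.

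**Figure D3:**
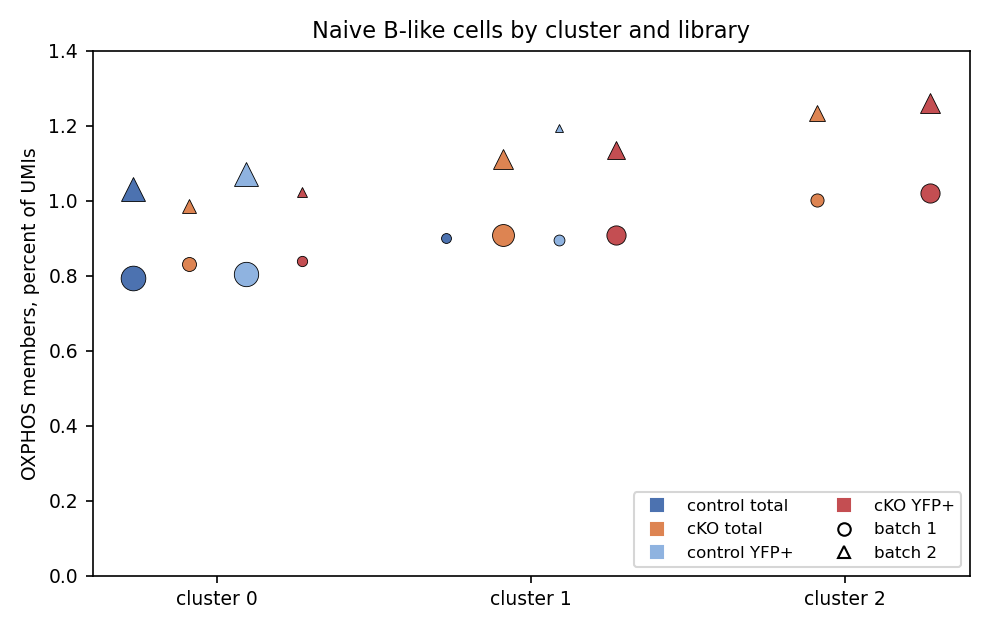
Share of UMIs held by the members (y axis, percent) in naive B-like clusters 0, 1 and 2 (x axis), 1 point per library with enough cells, coloured by group, shaped by batch and sized by the share of the library's naive B-like cells in that cluster. For cluster 0 of batch 1 control and cKO points lie between 0.795% and 0.839%, and the level steps up from cluster 0 to cluster 2.

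Other measures moved with the members in naive B-like cells. Ribosomal protein genes took 16.5% and 20.7% of UMIs in control total and 18.9% and 24.2% in cKO total, and 16.8% and 21.0% against 21.9% and 26.5% in YFP+ cells. Median UMIs per cell were 5143 and 4135 against 5389 and 6027 in total cells, and 3948 and 2777 against 5338 and 6067 in YFP+ cells. Cells with a UMI of a cycling marker made up 6.51% and 5.53% against 8.67% and 11.6% in total, and 11.7% and 12.7% against 18.3% and 16.0% in YFP+ cells. T cell markers were low, with a summed level of 2.53 to 13.7 CPM for the 9 genes in YFP+ and 27.1 to 45.6 CPM in total naive B-like cells, and plasma cell markers were lower in cKO YFP+ (86.2 and 113 CPM) than in control YFP+ (267 and 232 CPM). The part of these measures in the members' values was not tested, apart from leaving out cells with a cycling UMI, after which the median log2 fold change in YFP+ cells was 0.34.

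YFP+ and total naive B-like cells were compared within each genotype, and the difference between the genotypes in that comparison was called for 1 member. In control the comparison of YFP+ with total cells called 0 members without the batch (0 at an unadjusted p under 0.05, 0 by DESeq2; 0 of all genes called) and 2 with it, against 2.21% of all genes called higher. These were Ndufa4, at 177 and 261 CPM in total and 203 and 338 CPM in YFP+ cells, and Cox5a, a subunit at the matrix face of complex IV, at 136 and 198 against 155 and 247 CPM. In cKO 0 members were called without the batch (1 at an unadjusted p under 0.05, 0 by DESeq2; 0 of all genes called) and 47 of 74 with it, against 15.3% of all genes called higher. The members' median log2 difference, YFP+ over total, was 0.08 in control and 0.18 in cKO with batch as a term. The 2 sort comparisons share no library with each other but share libraries with the genotype comparisons above.

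Cox7a2l was the 1 member called for the interaction of genotype and sort. On the scale of the fit over all 8 libraries it was at 233 and 305 CPM in control total, 230 and 305 CPM in control YFP+, 274 and 398 CPM in cKO total and 347 and 501 CPM in cKO YFP+ cells. In control both sorts stood at nearly the same level in each batch, and in cKO the YFP+ cells were higher in both batches. The interaction was 0.35 ± 0.07 on the log2 scale (edgeR adjusted p = 0.0199 with batch as a term). Of all genes 0.914% were called higher and 1.23% lower, 2.15% in either direction, so 1 called member does not stand out from all genes. Cluster 2 of this class held 54.1% of cKO YFP+ but 19.96% of cKO total cells. Within cluster 0 alone, with batch as a term, the interaction fit called 0 of 11108 genes higher and 3 lower. The part of the clusters in the Cox7a2l value was not tested. Without the batch the interaction fit called 0 members (0 at an unadjusted p under 0.05, 0 by DESeq2; 0 of all genes called).

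Memory B-like cells of the YFP+ sort gave the largest median of all 30 comparisons, 0.44 on the log2 scale with batch as a term. Here the module's share was 0.953% and 1.30% in control and 1.22% and 1.62% in cKO, a ratio of 1.28 and 1.25 in batches 1 and 2. With batch as a term 29 of 72 members were called higher (4.13% of all genes), and without it 0 (3 at an unadjusted p under 0.05, 0 by DESeq2; 0.451% of all genes). Cox7a2l led again, at 279 and 367 CPM in control and 438 and 867 CPM in cKO, without overlap, a log2 fold change of 0.96 ± 0.13 with batch as a term. Ndufs8 and Ndufv2, iron-sulfur subunits of the matrix arm of complex I, were at 66.6 and 88.6 against 105 and 166 CPM, and at 61.4 and 86.4 against 95.6 and 150 CPM. Leaving out 1 library moved the median from 0.12 to 0.74 without the batch. At a clustering resolution of 1.5, a cluster led by the same genes Parm1, S100a6 and Sh2d6 was named B1-like. The name of this class therefore depended on the resolution. The cKO sums rest on 63 and 50 cells against 669 and 920 in control, with median UMIs per cell of 7743 and 10836 in cKO against 6098 and 4585 in control and with 46.0% and 46.0% against 37.8% and 34.6% of cells with a cycling UMI, whose part was not tested.

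YFP+ GCB-like and activated B-like cells had no member called, with or without the batch. In YFP+ GCB-like cells the module's share was 1.82% and 2.30% in control and 2.10% and 2.28% in cKO, so cKO lay above control in batch 1 (ratio 1.16) and not in batch 2 (0.992). Of 74 members tested 0 were called without the batch and 0 with it (0 at an unadjusted p under 0.05 in either fit, 0 by DESeq2), where 0.753% and 3.77% of all genes were called higher, and the median was 0.13 with batch as a term. Cox5a was at 419 and 714 CPM in control and 551 and 657 CPM in cKO, and Atp5b at 611 and 781 against 738 and 771 CPM, so each cKO pair lay inside its control range. In YFP+ activated B-like cells the share was 1.24% and 1.61% in control and 1.26% and 1.47% in cKO, the ratios were 1.01 and 0.912, and the median was 0.01 with batch as a term. There 0 of 72 members were called in both fits (0 at an unadjusted p under 0.05 without the batch and 3 with it, 0 by DESeq2), where 0.391% and 3.61% of all genes were called higher. Uqcrfs1, the Rieske iron-sulfur protein of complex III, had the value farthest from 0 among the subunits listed for every comparison, -0.40 ± 0.15, at 97.9 and 138 CPM in control and 79.2 and 98.3 CPM in cKO (adjusted p = 0.0641 with batch as a term). At the finer clustering, where most cells of cluster 8 below are named activated B-like, 4 members were called without the batch and 40 with it in YFP+ activated B-like cells, against 6.81% and 17.3% of all genes called higher.

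YFP+ B cluster 8 held 15 of the 16 calls of members made without the batch over all comparisons. This cluster had 72.9% of cells with a UMI of the proliferation gene Mki67 and a median of 23302 UMIs per cell, and it was left unnamed. In YFP+ cells it held 96 and 73 control and 862 and 1095 cKO cells. Its genotypes may not hold the same cells: at a finer clustering, a cluster led by the same genes Fabp5, Tmem176b and Socs2 held 2 and 1 cells of the control YFP+ libraries against 484 and 531 of the cKO ones. The module's share was 1.72% and 1.88% in control and 1.99% and 2.08% in cKO, without overlap. Of 75 members tested 15 were called higher without the batch and 0 lower (18 higher by DESeq2), with Cox6b2, which rests on 3 and 1 control UMIs, among them, against 13.6% of all genes called higher and 13.6% called lower, and with it 27 were called higher, against 17.1%. The members' median log2 fold change was 0.29 (0.03 over all genes). In cluster 8 of total splenocytes 0 of 72 were called (0 at an unadjusted p under 0.05, 0 by DESeq2; 0.837% of all genes called higher), with a median of 0.04, on 59 and 68 control and 78 and 83 cKO cells.

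In YFP+ cluster 8 the fit with batch as a term called 13 of 36 complex I, 4 of 8 complex III, 3 of 14 complex IV and 7 of 17 complex V members higher, and the complexes were not tested against each other. Ndufv2 was at 103 and 124 CPM in control and 187 and 223 CPM in cKO, a log2 fold change of 0.86 ± 0.18 (edgeR quasi-likelihood, Benjamini-Hochberg adjusted p = 0.0078). Ndufa12, an accessory subunit beside the matrix arm, was at 120 and 117 against 200.3 and 215 CPM, and Ndufa5 at 88.6 and 82.2 against 149 and 150 CPM. Both were free of overlap, with adjusted p of 0.00617 and 0.00673. Ndufc2 was at 182 and 232 against 337 and 338 CPM and Ndufs5 at 108 and 135 against 186 and 208 CPM. Leaving out 1 library moved the members' median from 0.21 to 0.40 without the batch. Such a fit leaves 1 library in a group, so its calls are not counted here.

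Cox6b2, an isoform of a cytochrome c oxidase subunit best known from testis, was nearly absent from control sums, so it passed the low-count filter through the group where it is high and its values are a description. In YFP+ cluster 8 it was at 1.43 and 0.822 CPM in control and 15.7 and 19.7 CPM in cKO. These are 3 and 1 UMIs in control and 386 and 610 in cKO, so the pooled ratio was 13.8 with an exact 95% counting interval of 5.38 to 50.9. In YFP+ B1-like cells, where 0.989% of all genes were called higher without the batch, the 1 member called was Cox6b2, which entered the test the same way, at 1 and 4 UMIs in control and 21 and 10 in cKO, a pooled ratio of 10.4 (interval 4.02 to 34.3). Its common counterpart Cox6b1 had a UMI in 76.1% of all cells and Cox6b2 in 1.66%. Intervals and bounds of this kind cover counting error only.

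Mitochondrial-encoded subunits had medians above 0 in naive B-like cells, as the nuclear members did, and below 0 in several YFP+ classes. Their median with batch as a term was -0.12 in YFP+ memory B-like, -0.18 in YFP+ T-bet+ B-like and -0.13 in YFP+ B1-like cells (0 of 13 called in each, edgeR), where the nuclear medians were above 0. With batch as a term 10 of the 13 mitochondrial-encoded subunits were called higher in naive B-like cells of total splenocytes and 7 in those of the YFP+ sort, against 10.6% and 9.56% of all genes, with medians of 0.30 and 0.32 and 0 lower. Without the batch 0 of the 13 were called in both (edgeR quasi-likelihood). In YFP+ cluster 8 all 13 were called lower with batch as a term and 5 without it, with a median of -0.56 with the batch, where 16.1% of all genes were called lower with the batch and 13.6% without it, while 27 nuclear members were called higher. There mt-Co1, the catalytic subunit of complex IV, was at 4192 and 3813 CPM in control and 2630 and 2220 CPM in cKO, a log2 change of -0.73 ± 0.08, and mt-Atp6 of the ATP synthase proton channel at 4311 and 4971 against 2987 and 2740 CPM. The 13 genes together took 2.73% and 2.52% of UMIs in control and 1.82% and 1.48% in cKO, and ribosomal protein genes 21.5% and 23.1% against 27.0% and 28.5%. In YFP+ GCB-like cells 0 of the 13 were called with batch as a term, with a median of -0.21. Cells with over 10% mitochondrial UMIs had been removed, and the part of that filter in these values was not tested.

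**Figure D4:**
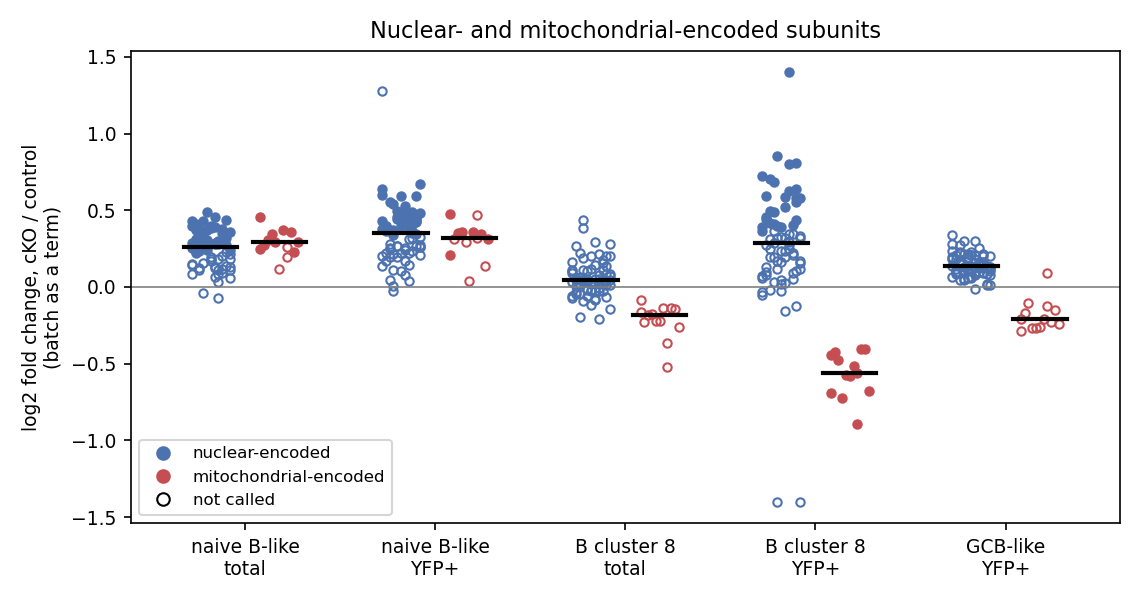
Log2 fold change of cKO over control with batch as a term (y axis) for nuclear-encoded members (blue) and the 13 mitochondrial-encoded subunits (red) in 5 comparisons (x axis); filled points were called, black bars are medians, and values beyond the axis are drawn at its edge. Both medians lie above 0 in naive B-like cells, while in YFP+ cluster 8 the nuclear median is 0.29 and the mitochondrial median -0.56.

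Other genes of respiration were read from lists of assembly factors, complex II and electron carriers, the citrate cycle and regulators. In total naive B-like cells 7 of 35 assembly factors, 1 of 10 complex II and carrier genes, and 0 of 16 citrate cycle genes were called higher with batch as a term, and 0 were called lower, against 10.6% and 9.62% of all genes. In YFP+ naive B-like cells 6 assembly factors were called higher and 2 lower, and 2 of 10 complex II and carrier genes higher, against 9.56% and 7.76% of all genes. Without the batch 0 genes of any list were called in both sorts. Cox14, which assists complex IV assembly, led in both, at 75.4 and 112 CPM in control total, 107 and 153 CPM in cKO total, 81.7 and 118 CPM in control YFP+ and 130 and 186 CPM in cKO YFP+ cells. Of 15 regulators 4 were called lower in total (Myc, Nrf1, Ppargc1b and Tfeb) and 3 in YFP+ naive B-like cells (Myc, Nrf1 and Ppargc1b), and 0 higher. Ppargc1b, a coactivator of respiratory genes, was at 18.8 and 16.1 CPM in control YFP+ and 9.62 and 7.73 CPM in cKO YFP+ cells, a log2 change of -1.01 ± 0.16. Nrf1, whose motif is shown above, was at 121 and 69.8 against 79.97 and 51.2 CPM there, with batch 1 above batch 2 in both genotypes.

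The same lists were read in YFP+ cluster 8. With batch as a term 11 of 35 assembly factors, 5 of 10 complex II and carrier genes and 5 of 16 citrate cycle genes were called higher and 0 lower, against 17.1% and 16.1% of all genes. Without the batch the counts were 9, 3 and 2 higher, against 13.6% of all genes. Ndufaf4, a complex I assembly factor, was at 28.6 and 37.8 CPM in control and 111 and 127 CPM in cKO, a log2 change of 1.86 ± 0.17. Cycs, cytochrome c itself, was at 199.6 and 206 against 420.4 and 470.1 CPM, and Cyc1 of complex III at 97.6 and 103 against 175 and 173 CPM. Among regulators Pprc1, Gabpb1 and Yy1 were called higher and Hif1a and Tfeb lower, with Gabpb1, the partner of the ETS factor GABPA, at 31.4 and 32.9 against 77.8 and 74.1 CPM.

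In naive T cells few members were called by genotype. In total naive CD4 T-like cells the module's share was 0.923% and 1.21% in control and 1.03% and 1.27% in cKO, with ratios of 1.11 and 1.05, and 0 of 72 members were called without the batch (0 at an unadjusted p under 0.05, 0 by DESeq2; 0.135% of all genes called higher). Of the 72 members 58 were higher in cKO within both batches and 2 lower, a count not made over all genes, and the median log2 fold change was 0.14. With batch as a term 4 were called higher (3.77% of all genes): Cox6c, Uqcrq, Atp5mpl and Atp5e, with log2 fold changes of 0.31 to 0.34. Atp5e was at 315 and 384 CPM in control and 386 and 479 CPM in cKO, which did not overlap, and Cox6c at 193 and 252 against 238 and 327 CPM, which did. The genotypes were spread unevenly over the clusters of this class, with 69.9% of control and 17.8% of cKO cells in cluster 1 and 1.14% and 68.6% in cluster 4. Within cluster 1 alone 0 members were called (edgeR, 0 at an unadjusted p under 0.05 without the batch and 7 with it), where 0.0424% of all genes were called higher without the batch and 0.403% with it. In total naive CD8 T-like cells 0 of 72 members were called in both fits (0 at an unadjusted p under 0.05 without the batch and 3 with it, 0 by DESeq2), against 0.239% and 2.08% of all genes called higher, and the median was 0.04 with batch as a term. T cells do not normally transcribe the γ1 locus that drives Cre, and these T cells come from the same libraries as the B cells. The source of the T cell differences was not tested.

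In Treg-like cells the members were called about as often as all genes or less. With batch as a term Ndufb7, Cox8a and Cox6c were called higher (5.22% of all genes) and Cox7a2l lower (5.6%), and without it 0 were called (1 at an unadjusted p under 0.05, 0 by DESeq2; 0.41% of all genes in each direction). Ndufb7, an accessory subunit of complex I, was at 107 and 125 CPM in control and 159 and 211 CPM in cKO, a log2 change of 0.67 ± 0.13. Cox7a2l was at 364 and 438 CPM in control and 246 and 300 CPM in cKO, a log2 change of -0.56 ± 0.10. Both genes had groups without overlap. The genotypes lay in different clusters of this class: cluster 5, led by genes that include Il1rl1, Klrg1 and Areg, held 23.4% of control and 89.7% of cKO total Treg-like cells, and cluster 10 held 76.6% and 10.3%. Within cluster 10 alone 0 members were called (edgeR, 1 at an unadjusted p under 0.05 without the batch and 5 with it), where 0.0309% of all genes were called higher without the batch and 0.263% with it. Cox7a2l was called higher in cKO with batch as a term in total and YFP+ naive B-like, YFP+ memory B-like, YFP+ B1-like and total GCB-like cells, and in total GCB-like cells, where 2.46% of all genes were called higher, it was at 233 and 365 CPM in control and 390 and 505 CPM in cKO.

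Across the 21 further B and T comparisons the members' median was above 0 in 20 without the batch and in 19 with it, from -0.03 to 0.44 with batch as a term. Calls were 16 without the batch, of which 15 in YFP+ cluster 8 and 1 in YFP+ B1-like cells, and 72 with it, in 9 of the comparisons. These tallies hold the calls of Cox6b2 and Cox6a2 that entered the test through 1 group. Of all gene tests 2.3% and 7.15% were called in either direction. Batch as a term called 6 members, Cox7a2l and Cox6b2 among them, in YFP+ B1-like cells (6.46% of all genes called higher), Atp5g2 and Atp5mpl in total B1-like cells (2.71%), Atp5e in total transitional B-like cells (0.966%) and Atp5g1 in total plasma cell-like cells (1.05%), all higher in cKO. Marginal zone B-like cells, with medians of 0.03 and 0.07, had 0 members called in both sorts and both fits (0 at an unadjusted p under 0.05 without the batch, 1 in total and 3 in YFP+ cells with it, 0 by DESeq2), where 1.37% and 1.51% of all genes were called higher with batch as a term. The module's share was higher in cKO in both batches in 12 of 17 total and 5 of 10 YFP+ classes.

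**Figure D5:**
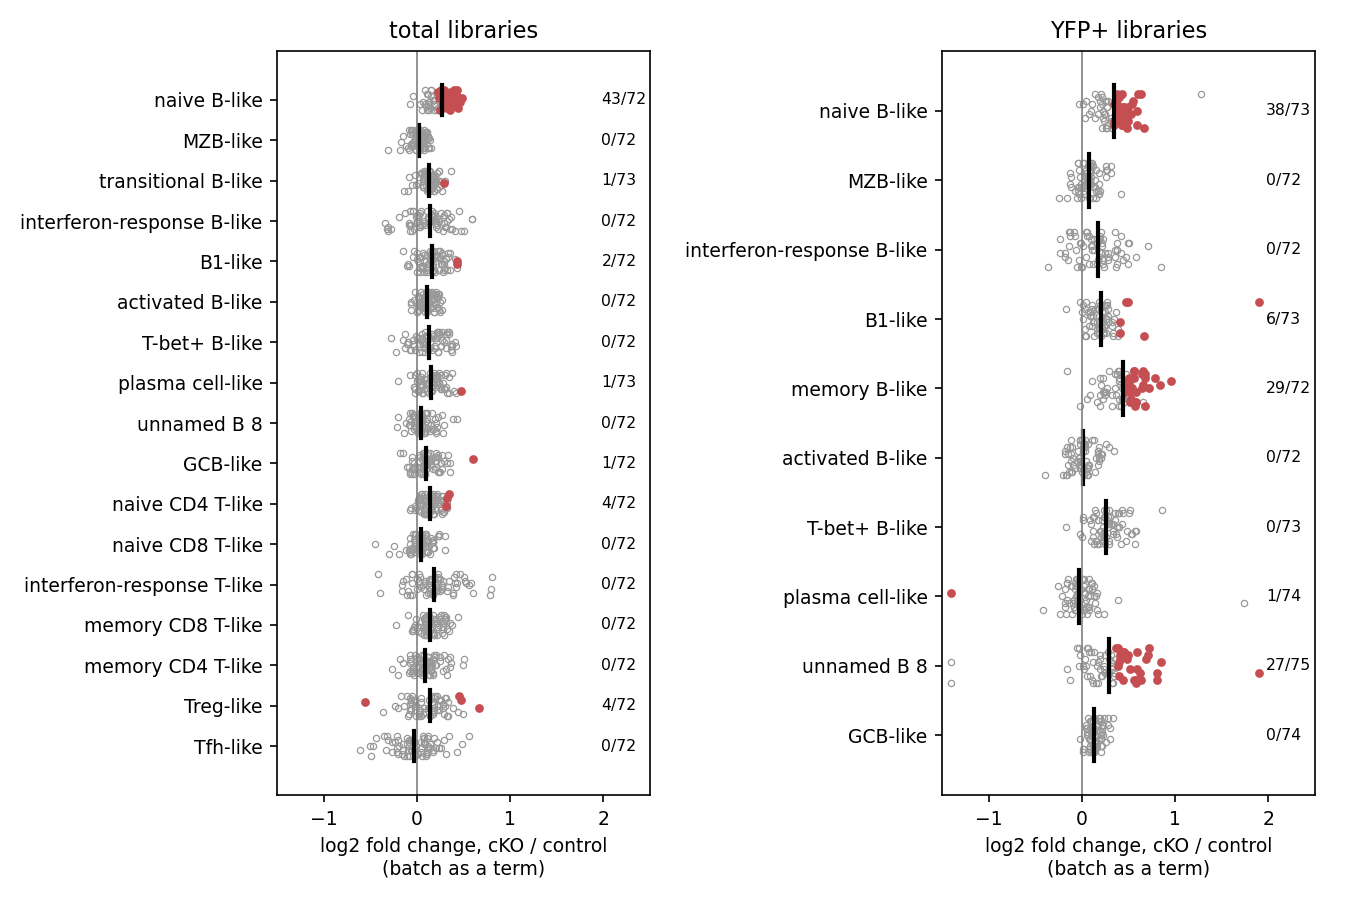
Log2 fold change of cKO over control with batch as a term (x axis) for each member in every B and T class tested (y axis), total libraries at left and YFP+ libraries at right; red points were called, black bars are medians, and the text at the right of each line gives called over tested members. Medians run from -0.03 to 0.44, calls gather in naive B-like cells, YFP+ memory B-like cells and YFP+ cluster 8, and Cox6b2 and Cox6a2 values beyond the axis, and Cox7a1 in YFP+ cluster 8, are drawn at its edge.

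Isoforms known from muscle, testis or lung were rare in most of these sums. Cox4i2 had 71 UMIs in all cells, Ndufa4l2 46, Cox7b2 7, Cox8c 2 and Cox8b 0, and none of these 5 passed the filter in any comparison. The common isoforms Cox4i1, Cox6a1, Cox7a2 and Cox8a had medians of 333, 181, 161 and 397 CPM over the 8 naive B-like sums and of 646, 461, 413 and 754 CPM over the 8 GCB-like sums. Cox6a2, the heart and muscle isoform of Cox6a1, was at 683 to 1084 CPM in cells named plasmacytoid dendritic-like from their markers (4 libraries with enough cells), against a median of 7.35 CPM in conventional dendritic-like cells. In YFP+ plasma cell-like cells Cox6a2 had 82 and 34 UMIs in control and 0 and 0 in cKO, where a floor of 3 counts over the group makes it at least 4.46-fold lower in cKO. It entered the test there through the control group alone, so its call with batch as a term (2.47% of all genes called lower) is no support.

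Most members followed the summed module across classes. Over 123 sums of library and class, the log2 level of a member correlated with the summed module with a median Pearson r of 0.874 over 61 members, and Cox7a2l (0.003), Ndufs4 (0.02) and Ndufa6 (0.09) had the lowest r. The genes outside the module with the highest r of 1974 compared were Gapdh (0.949), of glycolysis, Pomp (0.947) and Psmb4 (0.946), of the proteasome, Micos10 (0.945), of the inner mitochondrial membrane, and Tma7 (0.942). The summed mitochondrial-encoded subunits had an r of -0.19. These values are a description, since the 123 sums share libraries, depth and 18 classes and members are part of the module they are set against.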

How the data were processed

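Spleen cells of 4 groups of 2 libraries were profiled with a 3′ droplet kit, and the authors deposited raw UMI counts per gene and cell, 1 matrix per library. The submitters' processing notes name the builds GRCm38 and mm10, and no source read for this work states how reads matching several genes were counted, so members with processed pseudogenes are less certain. Cells with over 200 UMIs, over 100 genes and at most 10% mitochondrial UMIs were kept (83704 of 83967 barcodes). Median UMIs per cell were 5250 to 6810.5, which sets the counting precision per library. Doublets scored by a simulation-based caller (0.841% to 3.14% marked per library, with 4 YFP+ libraries taking the median threshold of the others) were kept, and their removal was an alternative.

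Cells were clustered on 2000 genes without the members and pathway genes, scaled within each batch (30 components, 20 neighbours, Leiden resolution 1). Classes were named from fixed markers. Counts were summed per class and library with at least 20 cells in each and tested with edgeR 4.0.16 quasi-likelihood (R 4.3.3, TMM scaling, low-count filter), with Benjamini-Hochberg adjustment over all genes at 0.05. CPM of single comparisons are TMM-scaled. Adjusted p-values with batch as a term come from the same edgeR test with the batch number as a block. For the interaction of genotype and sort, the block was the batch number within each genotype. Pairing comes from the batch number in the labels: deviations of same-numbered libraries correlated at 0.190 to 0.851 (median 0.405) over 29 comparisons. With 2 libraries per group, each of pooled mice, p-values measure the spread between these libraries. With batch as a term, a comparison of 2 groups leaves 1 residual degree of freedom. The SE and calls of such fits therefore lean on the spread that edgeR shares over all genes. The test without the batch was tried on simulated counts for YFP+ naive B-like cells, where it called 155 of 200 changed and 8 unchanged genes of 12819. The fit with batch as a term was not tested in this way. Whether these numbers hold at the spread of the real libraries and for differences as small as the members' was not tested. Alternatives were DESeq2 1.42.0, no TMM, no filter, leaving out each library, no doublets, resolution 1.5, cells without cycling UMIs and the batch block. Fits within 1 cluster, and the block joined with another choice, were chosen after seeing the data.

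Named were members called in a comparison (at most 8 per direction), a fixed set of subunits, tissue isoforms and called genes of the pathway lists. Members at the ends of the GCB-like ratio and of the correlations were chosen after their values were seen. The members and lists were chosen with earlier results of these data known. A result on 1 withheld item is not reported here.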

Additional observations from a re-analysis of the deposited data

Results flagged for a closer look

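The module's share in total Tfh-like cells was lower in cKO than in control in both batches, with ratios of 0.939 in batch 1 and 0.986 in batch 2, while 12 other total classes were above 1 in both batches. This holds for the raw share: on the TMM-scaled values of the test the members' median ratio was 0.929 in batch 1 and 1.04 in batch 2, where 46 of 72 members were higher in cKO. The difference between classes was not tested, and the control Tfh-like sums rest on 44 and 20 cells against 371 and 666 in cKO.

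The genotype difference of Cox7a2l in naive B-like cells was larger in YFP+ than in total cells by 0.35 on the log2 scale with batch as a term. It passed the test of the interaction as the 1 member called, where 0.914% of all genes were called higher and 1.23% lower. Without the batch the value was 0.34 ± 0.42 and the adjusted p was 1 (edgeR quasi-likelihood).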

How the results depend on the processing

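With the replicate block, calls were 43 in total naive B-like cells, 38 in YFP+ naive B-like cells, 4 in naive CD4 T-like cells, 2 for the sort in control, 47 for the sort in cKO, 1 for the interaction and 72 in the other classes. Of all genes the same fits called 10.6%, 9.56%, 3.77%, 2.21%, 15.3% and 0.914% higher, and 7.15% in either direction in the other classes. Without the block the calls were 0 each, and 16 in the other classes (2.3% of all genes in either direction). The block changed no call of the other comparisons. The block at resolution 1.5 gave 43, 39, 4, 3, 45 and 1 in the same order and 40 in YFP+ activated B-like cells, which had 4 at that resolution alone. Of all genes those fits called 9.68%, 9.63%, 3.75%, 2.43%, 13.8% and 0.703% higher, and 17.3% in YFP+ activated B-like cells (6.81% at that resolution alone). The block without TMM gave 19 in total and 11 in YFP+ naive B-like cells, 1 and 26 for the sort in control and cKO, 1 in YFP+ activated B-like cells and 47 in the other classes. No share of all genes is given here for the block without TMM, so these counts are not set against all genes. Without TMM the median of all genes was -0.11 and -0.14 in the naive B-like comparisons and the members' medians 0.15 and 0.19. Within the cluster with most control cells, the block gave 2 for the sort in control (2.04% of all genes called higher), and the other classes had 0 with and without it. The other classes also had 0 at resolution 1.5 and in cells without cycling UMIs, where cluster 8 is not a class of its own or drops out. Without the low-count filter 1 member was called in YFP+ naive B-like and 1 in naive CD8 T-like cells, with no share of all genes given here. Leaving out 1 library leaves 1 library in a group, so the calls of those fits are not counted here. It moved the members' median from 0.03 to 0.48 in total and from 0.06 to 0.64 in YFP+ naive B-like cells. Of 3272 values of named genes, 3047 kept direction and side of the threshold or were uncalled in both, 15 lost and 210 gained a call, 0 called values turned and 439 uncalled ones changed sign. Of the members' medians 118 moved by less than the spread between libraries and 18 by more. Where no value shows the cause, the cause was not tested.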

Other observations

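In NK-like cells Cox6a2 ran from 3.12 to 19.2 CPM over the libraries with enough cells. Cox6b2 stood at 119 and 153 CPM in the 2 libraries with enough erythroid-like cells, above every B cell sum.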
